A study of Mus musculus with 46 samples.

Results

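The comparison described here is between bone marrow-derived macrophages treated with BRM014 and control macrophages, both collected 20 min after lipid A was added. Its members were chosen by their labels: 2 libraries of BRM014-treated cells and 2 libraries of cells labelled WT, 4 of the 46 samples of the series and 4 of the 18 in the experiment with early times. The other groups of that experiment used below are control cells at 0 and 60 min, ACBI1-treated and BRDK98-treated cells at 20 min, and BRM014-treated cells at 60 min, each with 2 libraries. All were made from cultured mouse macrophages (BMDM), and every group other than the 0 min control received lipid A. The labels give no compound dose, no length of treatment before lipid A, no strain, age or sex of the donor mice, and no statement that replicates were separate cultures, so the spread between them may be technical. BRM014-treated cells without lipid A were not analysed here, so a change present before the stimulus and a change in the response cannot be told apart.

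Lipid A is the part of bacterial lipopolysaccharide that binds the receptor TLR4 on macrophages. Within minutes TLR4 activates NF-kB and MAP kinases, which switch on immediate early genes and a first wave of cytokine and chemokine genes without new protein synthesis. Secondary genes follow once products of the first wave have been made. SWI/SNF (BAF) complexes use the ATPases SMARCA4 (BRG1) and SMARCA2 (BRM) to move nucleosomes and open chromatin. BRM014 inhibits the ATPase activity of both, ACBI1 is a degrader of both and of PBRM1, and the labels give BRDK98 by a code name alone.

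Messenger RNA was read as TPM, that is, reads per exon length scaled to a fixed total per library. The control libraries held 27527252 and 22725845 exonic reads and the BRM014 libraries 16546766 and 18412091, so that a 2 kb transcript with 3 reads stood at 0.065 to 0.104 TPM. The 29 macrophage identity genes summed to 67107 to 71540 TPM in the control libraries and 73067 to 75111 TPM with BRM014, and none of them was at 0. The 12 granulocyte markers summed to 487 to 497 TPM and 494 to 495 TPM. Lymphocyte, dendritic, stromal and erythroid or mast cell marker lists each summed to 25.1 TPM or less in every one of these libraries, and Cd3e, Ncr1, Gzma and the hemoglobin genes were at 0 in all of them.

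At 20 min, BRM014-treated macrophages held less mRNA of a small set of early response genes. Among passing genes, log2(TPM + 1) fell most for the chemokines Cxcl1 and Cxcl2, the cytokines Tnf and Il10 and the phosphatase gene Dusp2. Their levels were 13.2% to 33.0% of control, and Ptgs2, near 1 TPM in controls, was at 8.84%. The early genes Fos, Ier2, Dusp1 and Zfp36, which also lay far above rest in control cells, stood at 89.1% to 111% of control and did not pass the test. Of 11549 genes tested, 38 fell (0.329%) and 7 rose (0.0606%), together 0.39%, and the median change over all genes was -0.03. A gene counts as fallen or risen where limma gave an adjusted p under 0.05 with the same sign on TPM as deposited and on median-scaled TPM, with all 18 libraries sharing 1 estimate of the spread. Changes are on the log2(TPM + 1) scale, BRM014 minus control, given ± the standard error. They and the limma adjusted p printed below are from TPM as deposited. On median-scaled TPM the limma adjusted p was nearer 0.05 for some genes, such as Actb (0.0259), Ccl4 (0.0438), Il1b (0.0451) and Cenpa (0.0451). It was lower for others, such as Egr1 (0.0062) and Ptgs2 (0.022). The BRM014 libraries did not overlap the controls in any of these 45 genes, nor in 57.8% of all tested genes, so lack of overlap sets no gene apart. In bulk RNA, fewer responding cells and less RNA per cell cannot be told apart. In the authors' deposited table, 231 genes were higher and 481 lower at the same threshold (2.83% of 25124 listed), and 34 of the 38 and 5 of the 7 were among them in the same direction. The fallen genes not among them were Cxcl1, Ptgs2, Spry2 and Gdf15, and the risen ones were Trpt1 and Ciart. For Cxcl1 the authors' log2 fold change was -2.87, in the same direction, but its adjusted p there was not under 0.05. Whether Cxcl1 was tested there or left out by a filter cannot be told.

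The size of these counts depended on which libraries set the spread. The replicates of BRM014 at 60 min lay farther apart than any others, with a median SD of 0.175 on the log2 scale against 0.055 and 0.056 for control and BRM014 at 20 min, and they enter the shared spread. With the 20 min groups alone, 273 genes were higher (2.36%) and 315 lower (2.73%), together 5.09%, and these held all 7 risen and 37 of the 38 fallen genes. The additional genes followed exon length. Across the 11549 genes, the change correlated with exon length (Spearman rho -0.52, a description over genes that share libraries), with a median of 0.09 in the 2891 genes with exons of up to 1570 bases and -0.15 in the 2887 genes of 4047 bases or more. In the fit of 20 min groups alone, 214 of the 273 higher genes lay among the former and 194 of the 315 lower genes among the latter. The 73 genes of cytosolic ribosomal proteins, short transcripts picked after their values were seen, had a median change of 0.15, and 16 of them were higher in that fit. Differences between replicates of 1 group tracked length too, with rho from -0.65 in BRM014 at 60 min to 0.30 in ACBI1 at 20 min. In the 2 groups compared here rho was smaller, -0.15 for control and -0.25 for BRM014 at 20 min. With the length trend taken out of every library, 64 genes were higher (0.554%) and 129 lower (1.12%), together 1.67%, with the 20 min groups alone, and 19 and 54 with all groups. That alternative was added after the data were seen. Under it, with all groups, 41 of the 45 genes kept their call, the exceptions being Hist1h1c, Ssh1, Tbl1xr1 and Nucks1. The 38 fallen genes had a median exon length of 2275 bases, against 2618 for all tested genes.

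**Figure D1:**
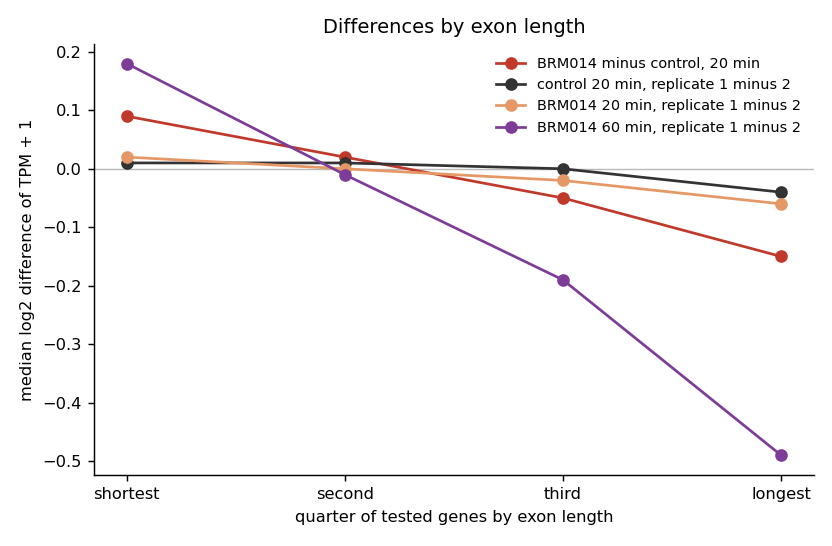
Median log2 difference of TPM + 1 (y axis) in 4 bins of tested genes from the shortest to the longest exon length (x axis), for BRM014 minus control at 20 min and for replicate 1 minus replicate 2 within 3 groups. The comparison runs from 0.09 in the shortest bin to -0.15 in the longest, less steeply than the 2 replicates of BRM014 at 60 min, which run from 0.18 to -0.49. It is steeper than the replicates at 20 min, which run from 0.01 to -0.04 for control and from 0.02 to -0.06 for BRM014.

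Genes of chemokines and cytokines of the first wave are described first. Cxcl2, a neutrophil-attracting chemokine (chr5:90903899-90905938, plus strand, mm10), was at 154 and 147 TPM in the control libraries and 36.6 and 36.9 TPM with BRM014. The 4 values form 2 separate pairs, and the change was -2.00 ± 0.08 (adjusted p = 1.5e-08). Tnf, the gene of the cytokine TNF (chr17:35199367-35202007, minus strand), was at 160 and 158 TPM in controls and 44.3 and 45 TPM with BRM014, a change of -1.81 ± 0.08 (adjusted p = 6.87e-08). Both genes still lay above the resting controls, which held 10.6 and 8.76 TPM of Cxcl2 and 18.9 and 16.6 TPM of Tnf. Cxcl1, another ligand of the same neutrophil receptor (chr5:90891245-90893115, plus strand), was at 7.58 and 7.20 TPM in controls and 0.664 and 1.28 TPM with BRM014. These levels rest on 164 and 127 reads against 9 and 19. Its change of -2.11 ± 0.17 (adjusted p = 1.98e-05) is understated by the 1 added to TPM, since the mean was 13.2% of control.

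Il10, the gene of an anti-inflammatory cytokine (chr1:131019845-131024970, plus strand), was at 41.4 and 34.7 TPM in controls and 11.4 and 10.4 TPM with BRM014, a change of -1.71 ± 0.21 (adjusted p = 0.0018). The BRM014 libraries lay inside the range of the resting controls, 14.5 and 7.63 TPM. Osm, the gene of the cytokine oncostatin M, was at 28.6 and 29.1 TPM against 13 and 12 TPM with BRM014 (-1.15 ± 0.13, adjusted p = 6.45e-04). Tnfsf9, the gene of the ligand of the co-stimulatory receptor 4-1BB, was at 24.5 and 21.8 TPM against 10.5 and 10.1 TPM (-1.09 ± 0.13, adjusted p = 0.0013). For both, controls and BRM014 formed separate pairs. Tnfsf9 shares exon positions with another annotated gene, and reads were counted on both strands, so its level is less certain. Il1b, the gene of IL-1 beta, was at 42.7 and 37.2 TPM against 21.4 and 22.9 TPM (-0.82 ± 0.13, adjusted p = 0.01), and it too overlaps another annotated gene. Ptgs2, the gene of the prostaglandin-forming enzyme COX-2, was at 1.26 and 1.39 TPM against 0.078 and 0.157 TPM. These levels rest on 129 and 116 reads against 5 and 11. The change of Ptgs2 (-1.06 ± 0.20, adjusted p = 0.0377) is strongly understated by the 1 added to TPM, since the mean was 8.84% of control.

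Ccl4, the gene of the chemokine MIP-1 beta, was at 194 and 157 TPM in controls and 98.6 and 79.0 TPM with BRM014 (-0.98 ± 0.16, adjusted p = 0.0136), the pairs spread more widely than for Cxcl2 but without overlap. Its neighbour in function Ccl3 was at 361 and 328 TPM against 261 and 222 TPM, a change of -0.51 ± 0.10 that passed on TPM as deposited (adjusted p = 0.038) but not on both scalings. Ccl2, the monocyte-attracting chemokine gene, was at 84.7 and 82.5 TPM against 77.6 and 77.0 TPM, with a 95% interval of -0.29 to 0.07 for its change. Ccrl2, the gene of a receptor that binds chemerin, was at 54.8 and 52.3 TPM in controls and 20.0 and 19.2 TPM with BRM014 (-1.40 ± 0.14, adjusted p = 2.36e-04). The chemokine genes named here thus ranged from 13.2% of control for Cxcl1 to 92.5% for Ccl2.

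**Figure D2:**
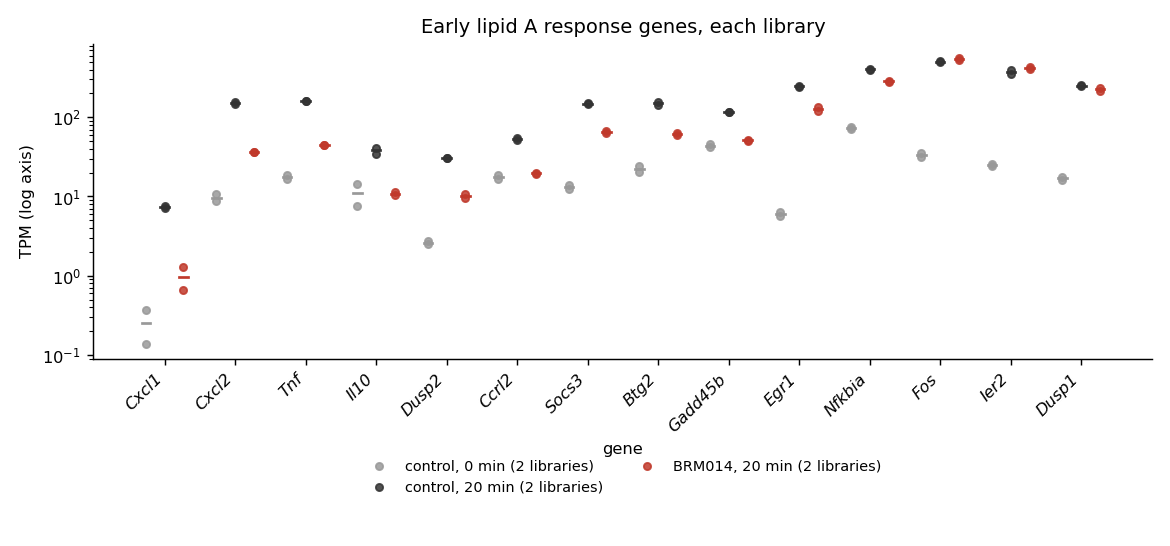
TPM on a log axis for 14 early genes in control libraries at 0 min (grey) and 20 min (black) and BRM014 libraries at 20 min (red); points are libraries and short lines the means of 2. Cxcl1 to Nfkbia lie lower with BRM014 than in the 20 min controls, with no overlap, while Fos, Ier2 and Dusp1 did not pass the test.

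Of the 34 genes in the list of primary NF-kB inflammatory genes, 11 fell, none rose and 23 did not pass. Over all tested genes 0.329% fell and 0.0606% rose. With the 20 min groups alone 15 were lower and 1, Cd83, was higher, where 2.73% and 2.36% of all tested genes were. The median change was -0.22 against -0.03 over all genes, and -0.23 with the length trend removed. Beside the cytokines, chemokines and Ptgs2 above, the fallen members included 2 of the IkB family, which regulates NF-kB. Nfkbia, the gene of IkB alpha, which holds NF-kB in the cytoplasm, was at 398 and 411 TPM in controls and 279 and 289 TPM with BRM014 (-0.51 ± 0.06, adjusted p = 0.0013). Nfkbiz, the gene of the nuclear IkB zeta, was at 42.6 and 40.1 TPM against 23.1 and 20.9 TPM (-0.88 ± 0.16, adjusted p = 0.0256). In both, the BRM014 values lay under the control values. Tnfaip3, the gene of the deubiquitinating enzyme A20, was at 29.3 and 30.4 TPM against 27.4 and 27.0 TPM, and the interval of its change ran from -0.29 to 0.04. The IkB family genes Nfkbid and Nfkbie did not pass either, at 95.2% and 104% of control. The list therefore split, with changes from -2.11 for Cxcl1 to 0.33 for Cd83.

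The immediate early genes split in the same way. Of 33 tested, 8 fell, none rose and 25 did not pass, with a median of -0.11, where 0.329% of all tested genes fell. With the 20 min groups alone 10 were lower and 2, Junb and Ier3, were higher, where 2.73% and 2.36% of all tested genes were. Dusp2, a nuclear phosphatase of MAP kinases, was at 30.2 and 30.7 TPM in controls and 9.50 and 10.6 TPM with BRM014 (-1.51 ± 0.10, adjusted p = 2.68e-06). Btg2, an antiproliferative gene, was at 157 and 144 TPM against 60.1 and 63.1 TPM (-1.27 ± 0.11, adjusted p = 3.11e-05). Ier5, an immediate early gene known as a regulator of the heat shock factor HSF1, was at 76.2 and 78.9 TPM against 32.0 and 30.0 TPM (-1.30 ± 0.08, adjusted p = 1.1e-06). Both Ier5 libraries with BRM014 lay under the resting controls, at 44.4 and 42.7 TPM, whereas Dusp2 and Btg2 stayed above theirs. The zinc finger factor Egr1 was at 247 and 242 TPM against 120 and 133 TPM (-0.95 ± 0.16, adjusted p = 0.014), and at 5.73 and 6.4 TPM at rest. Egr2, Klf10, Klf6 and the orphan nuclear receptor gene Nr4a1 fell by smaller amounts, with changes of -0.83, -0.66, -0.46 and -0.61.

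Several of the most abundant immediate early genes did not pass. Fos, a subunit of the factor AP-1, was at 505 and 492 TPM in controls and 530 and 554 TPM with BRM014, and the 95% interval of its change was -0.15 to 0.39. Ier2 was at 356 and 398 TPM against 409 and 427 TPM, with an interval of -0.04 to 0.34. Both lay slightly higher with BRM014 in each library, by less than the test could separate. Junb, another AP-1 subunit, was at 506 and 592 TPM against 631 and 672 TPM (0.25 ± 0.11, adjusted p = 0.524, and 0.0499 with the 20 min groups alone). Zfp36, whose product promotes decay of cytokine mRNA, was at 1098 and 1045 TPM against 983 and 1007 TPM (-0.11 ± 0.10, adjusted p = 0.709). Dusp1, which dephosphorylates p38 and JNK, was at 246 and 256 TPM against 217 and 231 TPM, with an interval of -0.37 to 0.04. Missing the threshold does not show that these levels were equal, but a fall as large as that of Tnf lies outside each of the intervals given. Jun was at 172 and 191 TPM against 120 and 119 TPM, and it passed with the 20 min groups alone (adjusted p = 2.5e-04) but not with all groups (-0.60 ± 0.12, adjusted p = 0.053). Dusp1, Zfp36, Junb and Jun share exon positions with other annotated genes, so their levels are less certain. Fosb had the highest change of the list, 1.21 ± 0.31, from 5.13 and 4.80 TPM to 12.3 and 13.3 TPM, and did not pass (adjusted p = 0.178). In the authors' deposited DESeq2 results Fosb was higher (log2 fold change 1.40, adjusted p = 2.1e-25), as were Ier3 (0.34, adjusted p = 3.07e-06) and Junb (0.29, adjusted p = 0.004). Jun was lower there (-0.56, adjusted p = 4.45e-13), while Fos, Ier2, Zfp36 and Dusp1 did not pass.

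Inhibitors of signalling made a further group. Of 27 genes listed as dual-specificity phosphatases and feedback regulators, 3 fell and 1 rose, where 0.329% and 0.0606% of all tested genes did. Socs3, an inhibitor of cytokine receptor signalling through JAK kinases, was at 147 and 150 TPM in controls and 62.7 and 66.4 TPM with BRM014 (-1.19 ± 0.08, adjusted p = 4.41e-06). Gadd45b, a stress-response gene, was at 115 and 118 TPM against 51.3 and 50.8 TPM (-1.17 ± 0.06, adjusted p = 3.01e-07). Each formed tight, separate pairs. Spry2, an inhibitor of receptor tyrosine kinase signalling, was at 3.87 and 4.34 TPM against 1.54 and 2.08 TPM (-0.87 ± 0.13, adjusted p = 0.0088). Rgs2, which shortens signalling by G proteins, was the member that rose, from 63.7 and 61.0 TPM to 105 and 97.6 TPM (0.69 ± 0.09, adjusted p = 0.0016). Id3, an inhibitor of basic helix-loop-helix factors, was at 18.1 and 18.9 TPM against 8.22 and 9.59 TPM (-0.98 ± 0.11, adjusted p = 4.3e-04).

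Secondary and interferon genes come next, and a missed threshold does not show that their levels were equal. None of 21 secondary inflammatory genes and none of 40 interferon response genes passed the limma test, while 1 interferon gene was lower with the 20 min groups alone. Il6 gave 8 and 4 reads in the control libraries and 0 and 1 with BRM014, Il12b 4 and 6 against 8 and 6, and Ifnb1 7 and 6 against 1 and 1. With so few reads a difference was not detectable at this depth. Nos2, the gene of inducible nitric oxide synthase, gave 3 reads or fewer in each of the 4 libraries, and Ccl5 was at 76.9 and 69.9 TPM against 71.9 and 57.8 TPM. The interferon list had a median change of -0.27 with 38 of 40 changes below 0, against 6757 of 11549 for all genes, although no member passed. These changes come from the same 4 libraries, so their signs are not separate observations. Standard errors were wide for several members, such as Ifit2 (0.36) and Rsad2 (0.30). The median of the interferon list was -0.24 with the length trend removed, and its median exon length, 2612 bases, was near that of all tested genes. The list of chromatin remodellers outside SWI/SNF had a similar median of -0.25, a median exon length of 7474 bases, and a median of -0.04 with the trend removed.

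Among 25 tested SWI/SNF subunit genes, Actb alone passed. Its product, beta-actin, is both a cytoskeletal protein and a subunit of the complex. Actb was at 2604 and 2709 TPM in controls and 1838 and 1903 TPM with BRM014 (-0.51 ± 0.06, adjusted p = 9.54e-04). Smarca4, the gene of a targeted ATPase, was at 30.1 and 32.0 TPM against 24.6 and 28.4 TPM (-0.22 ± 0.11, adjusted p = 0.59), and Smarca2, the gene of the other, at 11.0 and 9.97 TPM against 11.8 and 12 TPM (0.17 ± 0.11, adjusted p = 0.649). BRM014 acts on the proteins, so these levels do not check the labels. Arid1a and Pbrm1 had changes of -0.36 ± 0.26 and -0.28 ± 0.22 and did not pass. Smarca4, Smarca2 and Pbrm1 share exon positions with other annotated genes. With the 20 min groups alone 5 subunit genes were lower, where 2.73% of all tested genes were, and the 25 tested had a median exon length of 3138 bases.

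The other fallen genes belonged to several lists. Of all tested genes, 0.329% fell and 0.0606% rose, and 2.73% were lower with the 20 min groups alone. The histone genes Hist1h1c, of linker histone H1, and H3f3b, of the replication-independent histone H3.3, fell by 0.73 and 0.50, 2 of 12 tested. Of 16 p53 targets, Gdf15 and Pmaip1 fell, by 0.83 and 0.63, and none rose. Gdf15 was the gene whose call was lost with the 20 min groups alone (adjusted p = 0.0878), its control libraries being 50.9 and 77.9 TPM. Cited2, a transcriptional co-regulator, fell from 105 and 113 TPM to 57.6 and 58.4 TPM (-0.90 ± 0.11, adjusted p = 0.0016), the 1 of 18 tested FOXO and arrestin-domain genes to pass, where the 20 min groups alone gave 6. None of 30 TLR4 signalling genes, 29 macrophage identity genes, 23 chemokine and formyl peptide receptor genes, 27 cell cycle genes or 23 lysosome genes passed in this fit. With the 20 min groups alone these lists held 2, 3, 4, 0 and 0 calls, where 5.09% of all tested genes passed.

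**Figure D3:**
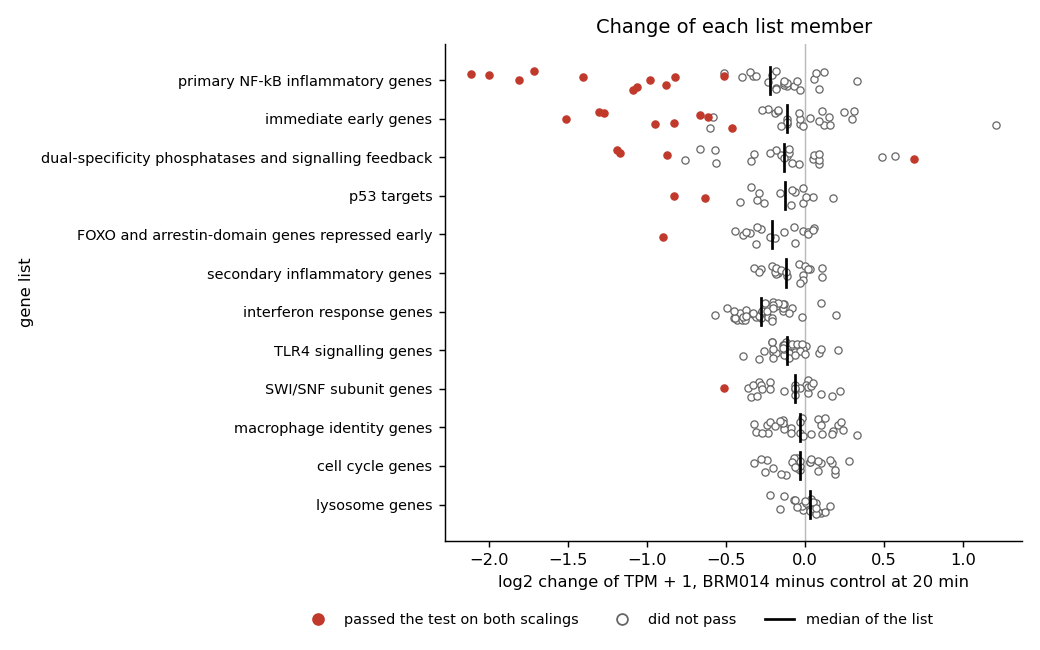
Log2 change of TPM + 1 between BRM014 and control at 20 min (x axis) for each tested member of 12 gene lists (rows); filled points passed the test on both scalings, and vertical lines are list medians. Fallen members stand apart to the left in the NF-kB and immediate early lists (11 of 34 and 8 of 33), while the interferon list is shifted to a median of -0.27 without any member passing.

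The 7 genes that rose were a mixed group with smaller changes. Mt2, a metal-binding metallothionein, was at 33.6 and 40.1 TPM in controls and 75.3 and 82.4 TPM with BRM014 (1.08 ± 0.15, adjusted p = 0.0032). Cenpa, the centromeric histone H3 variant, was at 75.7 and 76.4 TPM against 121 and 137 TPM (0.75 ± 0.14, adjusted p = 0.0331). In each case both BRM014 libraries stood above both controls. H2-K2 was at 25.2 and 22.8 TPM against 47.9 and 43.0 TPM (0.89 ± 0.09, adjusted p = 2.02e-04), but it is a class I MHC gene with near-identical relatives, so reads may have been split among copies. Trpt1 and Mt2 share exon positions with other annotated genes, Trpt1 with Fermt3, and Trpt1 was at 6.53 and 7.51 TPM against 15.6 and 13.5 TPM (0.96 ± 0.13, adjusted p = 0.0039). The circadian repressor gene Ciart rose from 1.04 and 0.848 TPM to 2.21 and 1.97 TPM (0.67 ± 0.11, adjusted p = 0.014). These 7 genes had a median exon length of 1357 bases.

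Lipid A-induced genes made up 71.1% of the 38 fallen genes, but 16.5% of the 315 genes lower with the 20 min groups alone. Of 526 tested genes that went up by a log2 change of 1 or more from 0 to 1 hr of lipid A in control libraries of another experiment, 27 fell and 1 rose. That is 5.13% of the induced genes, against 0.0998% fallen among the 11023 other genes. With the 20 min groups alone, 52 induced genes were lower (9.89%) and 14 higher, against 2.39% lower among the others. No library is shared between the choice of these genes and the comparison. The median change of the induced genes was -0.11 against -0.03 for the others. With the induced set taken from control libraries at 0 and 60 min of the same experiment, 29 of 398 fell (7.29%). The 11 fallen genes outside the first induced set were Actb, Hist1h1c, Ier5, Klf10, Lrrc8a, Nuak2, Nucks1, Rrbp1, Ssh1, Tagap and Tbl1xr1.

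Set against resting control cells, BRM014-treated cells at 20 min held 16 of the 38 fallen genes above rest, 10 below, and 12 that did not pass. This comparison uses the same BRM014 libraries that chose the genes, so it describes where their levels lay and is no separate support, and 8.42% and 9.21% of all tested genes were above and below rest. Above rest were Egr1 (4.17), Socs3 (2.22), Nfkbia (1.94), Cxcl2 (1.83) and Dusp2 (1.61), where the log2 difference from rest in control cells was 5.12, 3.41, 2.44, 3.83 and 3.12, both taken from the same resting libraries. Il10 and Ccrl2 did not differ from rest with BRM014 by this test, at 0.04 and 0.14, where the control cells had 1.75 and 1.54. Ier5, Actb and Klf6 were among those below, at -0.48, -0.53 and -0.38.

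For the genes with an entry in the RefSeq promoter table (GRCm38.p6, 250 bases before to 50 after the start site), 3 promoters are shown because these genes fell together and differ in their motifs. Capitals in Cxcl2 mark 2 overlapping matches, 1 on each strand, to the NF-kB consensus of 10 letters, the first at position -97 from the start site. Capitals in Btg2 mark the cyclic AMP response element TGACGTCA at position -166, and Tnf has neither motif in this window.
Cxcl2, chr5:90903649-90903948, plus strand: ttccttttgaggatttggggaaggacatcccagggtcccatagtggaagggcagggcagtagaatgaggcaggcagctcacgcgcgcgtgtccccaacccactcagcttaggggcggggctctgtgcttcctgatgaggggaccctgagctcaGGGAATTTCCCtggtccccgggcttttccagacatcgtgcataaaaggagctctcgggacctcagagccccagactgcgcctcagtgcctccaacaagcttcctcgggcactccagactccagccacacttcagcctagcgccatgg
Tnf, chr17:35201958-35202257, minus strand: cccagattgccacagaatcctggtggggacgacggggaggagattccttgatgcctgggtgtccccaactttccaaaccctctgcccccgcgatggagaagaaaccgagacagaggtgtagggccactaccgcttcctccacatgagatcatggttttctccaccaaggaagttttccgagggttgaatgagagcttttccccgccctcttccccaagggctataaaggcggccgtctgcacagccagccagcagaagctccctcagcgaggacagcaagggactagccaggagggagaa
Btg2, chr1:134079106-134079405, minus strand: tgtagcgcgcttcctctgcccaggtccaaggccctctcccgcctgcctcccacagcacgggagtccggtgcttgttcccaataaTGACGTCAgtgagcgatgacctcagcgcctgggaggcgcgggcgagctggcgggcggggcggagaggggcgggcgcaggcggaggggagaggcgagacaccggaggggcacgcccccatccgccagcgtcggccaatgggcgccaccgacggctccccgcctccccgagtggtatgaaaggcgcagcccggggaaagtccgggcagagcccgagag
Both strands were searched. The NF-kB consensus was present in 4 of the 27 fallen genes with an entry (14.8%), in 917 of the 9003 tested genes with one (10.2%) and in 11 of 24 primary NF-kB genes (45.8%). The cyclic AMP response element was in 2 of the 27 (7.41%) and in 3.24% of the 9003. No match says only that these letters are not in this window.

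By 60 min the fallen genes had gone different ways. Against 60 min controls, which share no library with the 20 min comparison, 19 of the 38 were lower with BRM014, 12 were higher and 7 did not pass, where 13.4% and 16.8% of all tested genes were lower and higher. The 19 are 50.0% of the 20 min set and 1.22% of the 1553 genes lower at 60 min. Il1b, lower at both times, went from a change of -0.82 at 20 min to -2.92 at 60 min, with 3466 and 3311 TPM in the 60 min controls and 527 and 379 TPM with BRM014. Il10 likewise went from -1.71 to -3.14, with 644 and 567 TPM against 70.3 and 65.2 TPM. Tnf and Cxcl2 narrowed, to -0.39 and -0.45, with Tnf at 5672 and 5684 TPM against 4325 and 4328 TPM. Egr1 turned from -0.95 to 1.46, with 335 and 278 TPM in the 60 min controls against 696 and 1022 TPM. Cited2, Ier5, Btg2, H3f3b and Actb turned as well, to 2.14, 1.06, 1.09, 1.37 and 0.94.

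The difference between the times was tested as an interaction, which 791 genes passed upward (6.85%) and 740 downward (6.41%), together 13.3%. It was passed by 27 of the 38 fallen and 4 of the 7 risen genes. Since the 20 min libraries enter both the choice of these genes and the interaction, that count is a description. Cited2 (3.04 ± 0.16), Egr1 (2.41 ± 0.22), Btg2 (2.36 ± 0.15) and Ier5 (2.35 ± 0.11) had large upward differences, and Il1b (-2.10 ± 0.18) and Osm (-1.47 ± 0.18) downward ones. Cxcl1, Dusp2, Ccrl2 and Socs3 were lower at both times and did not pass the test of a difference, with estimates of 0.61, 0.25, -0.07 and -0.10. Fos, which did not pass at 20 min, was at 262 and 267 TPM in the 60 min controls and 1100 and 1493 TPM with BRM014. Of the 7 risen genes, 3 were higher at 60 min too, Mt2 by 1.59 and Rgs2 by 0.93 among them. The wider spread and length trend of the 60 min BRM014 replicates bear on all of these values, and their part in them was not tested beyond the alternatives given.

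**Figure D4:**
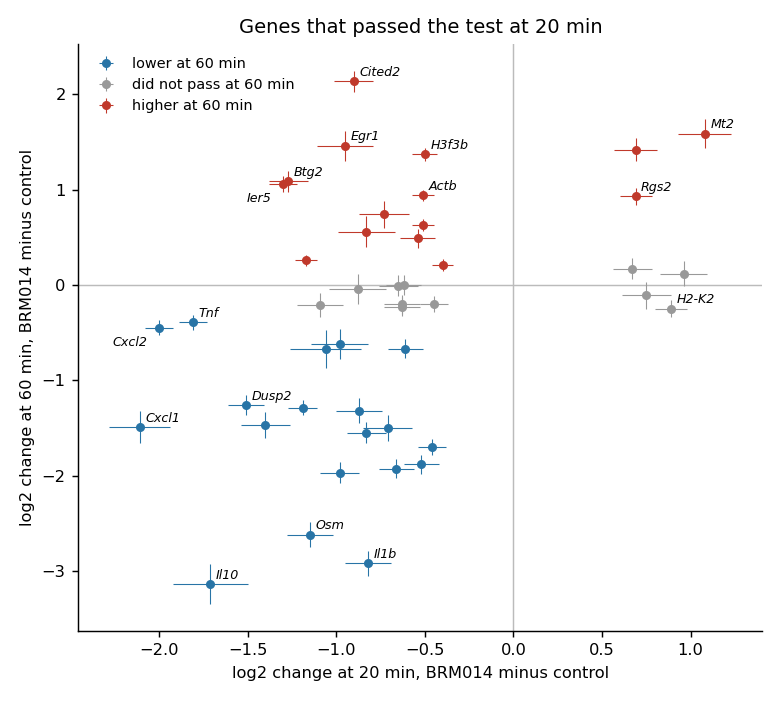
Log2 change of TPM + 1 with BRM014 at 20 min (x axis) against that at 60 min (y axis) for the 45 genes that passed at 20 min; bars are standard errors and colours the call at 60 min. Of the 38 genes left of 0, 19 lie below 0 and passed at 60 min (blue), 12 lie above (red) and 7 did not pass (grey).

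Treatment with the other compounds at the same time gave other levels of some of these genes and similar levels of others. Mean Tbl1xr1 was 15.4 TPM in controls, 9.62 TPM with BRM014, 10.6 TPM with ACBI1 and 10.1 TPM with BRDK98. Mean Trpt1 was 7.02, 14.6, 13.7 and 15.3 TPM in the same order, and each compound passed as higher than control. For Tbl1xr1, limma gave an adjusted p against control of 0.061 with ACBI1 and 0.0064 with BRDK98. Its call with BRM014 was lost with the length trend removed. Each compound was set against the same 2 control libraries, so these similar levels are not separate observations. Doses are not given in the labels, so the compounds are compared at matched time only. Tested directly, BRM014 differed from ACBI1 in 40 genes, 35 lower (0.303%) and 5 higher (0.0433%) with BRM014, together 0.346%. Cxcl2 was at 243 and 226 TPM with ACBI1 against 36.6 and 36.9 TPM with BRM014 (-2.64, adjusted p = 4.16e-10). Tnf was at 199 and 192 TPM with ACBI1 against 44.3 and 45 TPM (-2.11, adjusted p = 9.82e-09), while for Tnf ACBI1 itself did not differ from control by the test (0.30 ± 0.08, adjusted p = 0.409). Il1b followed with 88.7 and 77.7 TPM under ACBI1 (-1.86, adjusted p = 3.74e-06). By the same limma fit, ACBI1 itself was higher than control for Cxcl2 (0.64 ± 0.08, adjusted p = 0.0036) and Il1b (1.04 ± 0.13, adjusted p = 0.0036). The differences between the compounds in Cxcl2 and Il1b therefore include a higher level with ACBI1. Of the 38 fallen genes 22 were lower than with ACBI1 and 16 did not pass. The 2 tests share the BRM014 libraries, so this count is a description. Ier5 lay between, at 50.2 and 50.1 TPM with ACBI1, and BRM014 was still lower (-0.68, adjusted p = 6.79e-04). Actb was at 1888 and 1807 TPM with ACBI1 and 1838 and 1903 TPM with BRM014, a difference of 0.02 that did not pass. Rgs2 was higher with BRM014 than with ACBI1, by 0.74. H2-K2, at 42.1 and 43.3 TPM with ACBI1, differed by 0.09 and did not pass.

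Against BRDK98, BRM014 differed in 109 genes, 65 higher (0.563%) and 44 lower (0.381%) with BRM014, together 0.944%. The steepest falls differed in whether they separated the compounds. Cxcl2 was at 34.2 and 35.8 TPM with BRDK98, 0.07 from BRM014, and Cxcl1 at 1.14 and 1.61 TPM, -0.28 from it, neither passing. Tnf was at 66.7 and 81.9 TPM with BRDK98 and lower with BRM014 (-0.72, adjusted p = 4.02e-04), and Ier5 and Gadd45b were lower too, with differences of -0.94 and -0.54. Of the 38 fallen genes, 7 were lower and 6 higher with BRM014 than with BRDK98, and 25 did not pass. Socs3 was at 18.6 and 22.5 TPM with BRDK98 against 62.7 and 66.4 TPM with BRM014 (1.61, adjusted p = 2.9e-07). Id3 was at 3.23 and 2.41 TPM with BRDK98, again under the BRM014 libraries (1.38, adjusted p = 6.21e-06). Egr1 ran the other way, at 256 and 330 TPM with BRDK98 against 120 and 133 TPM with BRM014 (-1.20, adjusted p = 0.0012), as did Hist1h1c at 223 and 214 TPM against 75.7 and 69.5 TPM (-1.58, adjusted p = 2.82e-05). Tnfaip3 was at 7.17 and 8.16 TPM with BRDK98 and 27.4 and 27.0 TPM with BRM014. A difference that missed the threshold does not show that the compounds acted alike.

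**Figure D5:**
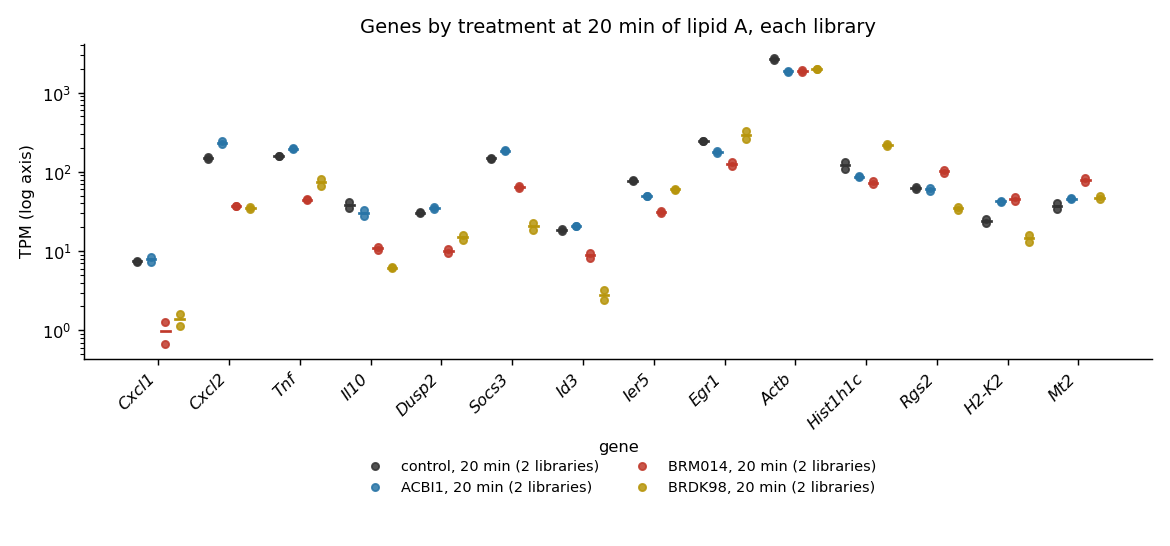
TPM on a log axis for 14 genes at 20 min of lipid A in control (black), ACBI1 (blue), BRM014 (red) and BRDK98 (yellow) libraries; points are libraries and short lines the means of 2. Cxcl2 and Tnf lie high with ACBI1 and low with BRM014, while Socs3, Id3 and Rgs2 are lower with BRDK98 than with BRM014.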

How the data were processed

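Polyadenylated RNA of mouse macrophages was read as 50 bp single ends from stranded libraries, per the labels' protocols. Per the submitters' processing notes, the tools were STAR 2.5.3a, HOMER and DESeq2 and the build mm10 (GRCm38). The authors deposited TPM per gene, with exonic reads on both strands per the file headers. Their comparison tables hold log2 fold changes and adjusted p-values as deposited by the authors, used only where named. The deposited TPM gave whole reads within 0.1 for 100% of low values; these reads served for depth and for limma voom. The table holds TPM, so DESeq2 and edgeR were not run.

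A gene needed 1 TPM or more in 2 or more libraries to be fitted with limma 3.58.1 (R 4.3.3; trend and robust moderation; 9 groups, 9 residual degrees of freedom) on log2(TPM + 1), and p was adjusted by Benjamini and Hochberg over 11549 genes. The fit was tested on simulated data. p-values measure the spread between these samples only, and read floors cover counting error only.

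The comparison and the 32 gene lists were chosen with earlier results of these data known. Named genes are the targeted subunits, reference inflammatory and early genes, the 12 largest changes each way at 10 TPM or more, up to 4 passing genes per list above 5 TPM, and the 5 largest each way in direct tests. Ccl2, Ccl3, Cd83, Ier3, Fosb, Jun, Junb, Nfkbid, Nfkbie, Tnfaip3, Zfp36, Klf6, Klf10, Nr4a1, Egr2, Nfkbia, Nfkbiz, Ccl4, Spry2, Ciart and other passing genes outside that rule were named after their values were seen, and 1 risen gene is not reported here by name. Alternatives were another pseudocount, filters, moderation without trend and robust, a replicate block, each scaling alone, voom, each library left out, the 20 min groups alone and, added after the data were seen, removal of the length trend and of each 60 min BRM014 library.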

Additional observations from a re-analysis of the deposited data

Results flagged for a closer look

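For these genes the effect of BRM014 differed between 20 and 60 min of lipid A by the limma interaction test over 11549 genes, given here as the 60 min change minus the 20 min change on the log2 scale. Of the genes that had fallen at 20 min, the difference was upward for Egr1 (2.41), Btg2 (2.36), Ier5 (2.35), Cxcl2 (1.55), Actb (1.45), Gadd45b (1.43), Tnf (1.42) and Tnfsf9 (0.88). It was downward for Il1b (-2.10), Osm (-1.47), Il10 (-1.43) and Id3 (-0.99). Of the genes that had risen, the difference was downward for H2-K2 (-1.15), Cenpa (-0.85) and Trpt1 (-0.84). Among reference genes that did not pass at 20 min, the difference was upward for Fos (2.15) and downward for Il12b (-4.34), Il6 (-2.81), Ifnb1 (-2.14) and Ccl5 (-1.50). Adjusted p ranged from 2.84e-10 for Il12b to 0.0091 for Cenpa. Il6, Il12b and Ifnb1 had 8 reads or fewer in each control and BRM014 library at 20 min, so their 20 min change was near the floor. The 60 min BRM014 replicates lay farther apart than other pairs, and the part of that spread in these values was not tested beyond the alternatives given below.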

How the results depend on the processing

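With the 20 min groups alone the comparison gave 273 higher and 315 lower genes, and BRM014 differed from ACBI1 in 71 and from BRDK98 in 201; the 60 min BRM014 replicates then no longer enter the spread. With the length trend removed as well, the values were 64, 129, 79 and 240. With the trend removed and all groups, 19 genes were higher and the interaction passed for 2356. TPM as deposited alone gave 11 higher genes and voom on recovered reads 14. Leaving out 1 library at a time gave 2 to 160 higher and 13 to 255 lower genes, 20 to 70 differing from ACBI1, 45 to 176 from BRDK98, and 1050 to 3730 in the interaction, the last without 60 min BRM014 replicate 2; the high ends come from leaving out either 60 min BRM014 library (157 and 160 higher, 255 and 253 lower), and without any 1 of the 4 libraries compared 2 or 3 genes were higher and 13 to 18 lower. Cxcl1, Cxcl2, Tnf, Il10, Dusp2, Ccrl2, Ier5, Btg2, Socs3, Gadd45b and Cited2 among the 38 fallen genes, and H2-K2 and Rgs2 among the 7 risen, passed under all 17 alternatives, and no named gene that passed changed sign. A pseudocount of 0.1, no filter, a stricter filter, limma without trend and robust and median scaling alone left the counts within 1.5 times. Same-numbered replicates could not be shown to be paired (correlation of their deviations 0.104 between control and BRM014 at 20 min), and with a replicate block 8 genes were higher and 38 lower. The interaction could not be fitted with 20 min groups alone. DESeq2 and edgeR, planned for a table of counts, were not run, since the table holds TPM.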
